A study of Rattus norvegicus with 2 samples.

Results

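The genes described here are 10 rat genes that build or regulate the microtubules of neurons. They comprise the tubulins Tubb3 and Tubb2b, the microtubule-associated proteins (MAPs) Map2, Mapt, Map1a and Map1b, and the stathmins Stmn1, Stmn2, Stmn3 and Stmn4. The rule took them by name and used no measured value, although earlier results of these arrays were known when the names were picked, and every probe set that the platform annotation assigned to exactly 1 of these symbols was kept. This gave 16 probe sets for the 10 genes, out of 12783 probe sets with 1 symbol for 10411 genes. Of the genes, 5 had several probe sets and the other 5 had 1. RNA came from rat sympathetic neurons on Affymetrix Rat Expression Set 230A arrays, with 1 array per condition. The array of neurons with myocytes held RNA from neurons grown together with myocytes, a muscle target of these neurons, and then lifted off the dish with EDTA. The array of neurons alone held RNA from neurons cultured without myocytes. The labels used here give no strain, age, time in culture or pooling, and the description field of the co-culture sample names neurons grown alone, against its title and source name, which were followed.

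Microtubules are polymers of alpha- and beta-tubulin, and they fill the axons and dendrites of a neuron. Proteins such as Map2 and Mapt (tau) bind along the polymer and stabilise it, whereas stathmins bind free tubulin dimers and promote disassembly. The balance between the polymer and its free subunits is known to matter for the advance of growth cones, and the study, per its design text, asked which genes accompany the arrest of growth when sympathetic neurons meet their target.

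The values are the deposited intensities on a linear scale. For ratios, any value under 39.6, the 20th percentile of the pooled arrays, was raised to that floor before log2 was taken, and each log2 ratio is neurons with myocytes over neurons alone, so that a negative ratio means a lower signal with myocytes. A gene's value is that of its brightest probe set. With 1 array per condition there is no replicate error and no test, and every difference compares these 2 arrays, not the conditions. A technical yardstick was taken from the 749 genes that had several probe sets at or above the median intensity of an array. From the differences between the 2 brightest probe sets of a gene, the spread (SD) expected of a single probe set's ratio was 0.36 in the dimmest of 4 groups by signal and 0.21 in the brightest. This technical SD says how well probe sets of 1 gene agreed and holds no variation between cultures. Intensities of different probe sets are not set against each other, since each probe set has its own brightness.

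The ratios of the 10 genes lay on both sides of 0, with an SD of 0.29 against 0.30 for all genes above the signal filter. On the brightest probe sets 5 of 10 were lower and 5 were higher in neurons with myocytes. This was close to the background, since 52.7% of the 6368 genes above the signal filter were lower. Tubb2b, Map2, Mapt and Stmn1, all among the higher ones, are given no direction below. A gene was above the filter if its intensity reached the median of its array (175.0 with myocytes, 185.7 alone) in at least 1 array, and all 10 genes were. The median log2 ratio of the 10 genes was -0.05, against -0.01 for all genes above the filter, and the ratios ran from -0.60 for Map1a to 0.39 for Stmn4. Map1a was the 1 member at least 1.5-fold lower, a size seen in 3.3% of genes above the filter. None was 1.5-fold higher, against 1.93% of those genes, and none was 2-fold different in either direction, against 0.942%. The median turned to 0.04 under median scaling and was -0.15 after quantile normalization. It was -0.27 when all probe sets of a gene were averaged.

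**Figure D1:**
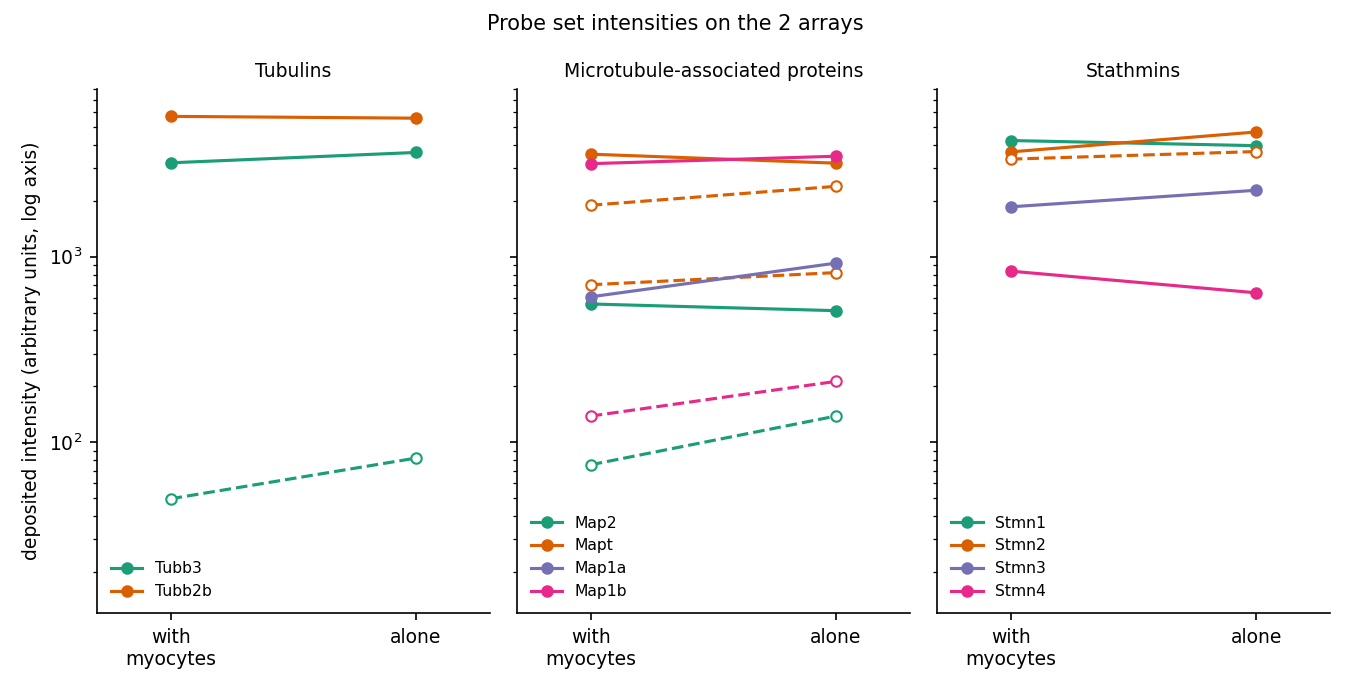
Deposited intensity (log axis, arbitrary units) of all 16 probe sets in neurons with myocytes (left) and neurons alone (right), by family. Filled points and solid lines are each gene's brightest probe set and open points with dashed lines its other probe sets. Lines that climb to the right are lower with myocytes, as for Map1a (607 with myocytes and 923 alone), and the line of Stmn4 drops to the right (835 with myocytes and 638 alone).

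**Figure D2:**
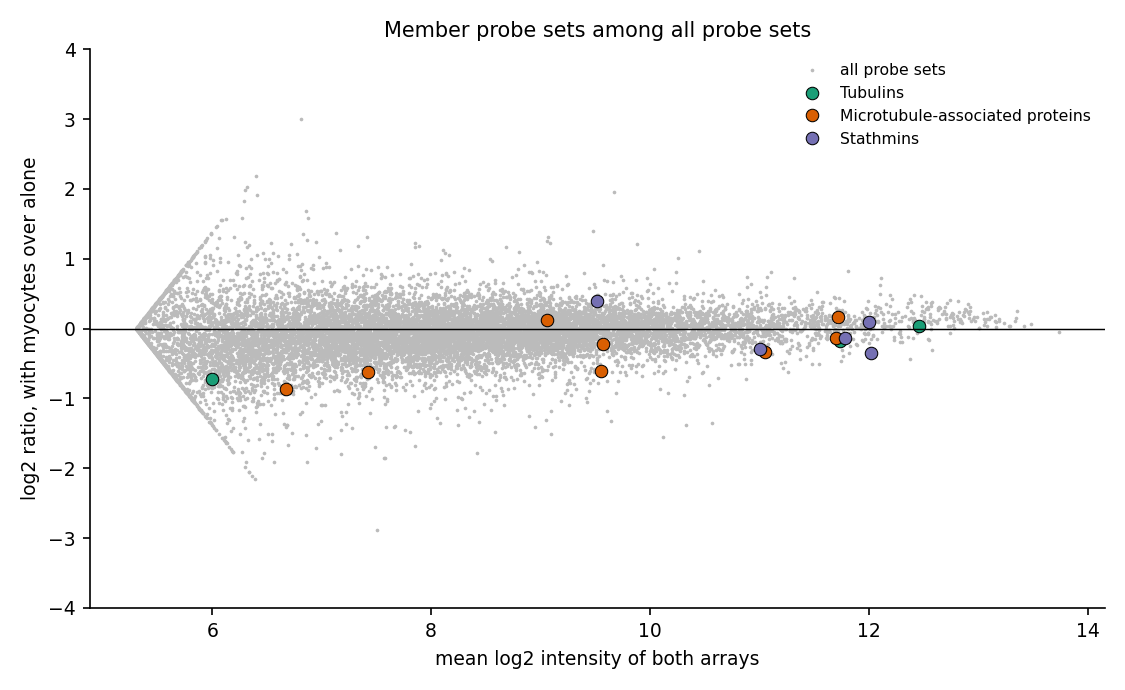
Log2 ratio of neurons with myocytes over neurons alone against mean log2 intensity of both arrays, for all probe sets (grey) and for the member probe sets by family. The members lie inside the grey cloud, between -0.87 and 0.39, and the bands that close on the left come from the floor at 39.6.

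Among the tubulins, Tubb3, the beta-tubulin used as a marker of neurons, had an intensity of 3202 in neurons with myocytes and 3641 in neurons alone on its brightest probe set (1371618_s_at). Its log2 ratio of -0.19 was smaller than the technical SD of 0.21. The ending of this probe set's name marks probes that may also match other transcripts. The other Tubb3 probe set (1369901_at) was dim, at 49.6 with myocytes and 82.2 alone, both below the filter, with a log2 ratio of -0.73. Both probe sets thus had the lower value with myocytes, but they differed by 0.54 in log2 ratio. Tubb2b, a beta-tubulin of developing neurons, had 5697 with myocytes and 5571 alone, a log2 ratio of 0.03. It was -0.10 with quantile-normalised arrays, -0.08 with lowess and -0.06 with spike-in scaling, so no direction is given for Tubb2b. Its ratio exceeded that of Tubb3 by 0.22 on the log2 scale, less than the technical SD of such a difference (0.29).

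The sequences in front of 4 members are given so that both tubulins, whose brightest probe sets lay on either side of 0 as deposited, can be set beside 1 MAP and 1 stathmin with values below 0. The RefSeq promoter table of build GRCr8 matched 7 of the 10 members, and Mapt, Stmn2 and Stmn4 were not among them. For Tubb3, Tubb2b, Map1b and Stmn3 the window starts from the annotated gene start, and for Map1a, Map2 and Stmn1 it lies at another position of the gene, so those 3 are not printed. The 250 bases before the start are shown 5′ to 3′ on the gene's strand, chr19:68365437-68365686 (plus) for Tubb3, chr17:30952836-30953085 (plus) for Tubb2b, chr2:32644472-32644721 (minus) for Map1b and chr3:188802495-188802744 (minus) for Stmn3. Capitals mark matches, on either strand, to the core of the TATA box (letters TATAAA), to that of the CCAAT box (the same letters as its name) and to that of the GC box (letters GGGCGG), and none of these matches overlapped another.
Tubb3: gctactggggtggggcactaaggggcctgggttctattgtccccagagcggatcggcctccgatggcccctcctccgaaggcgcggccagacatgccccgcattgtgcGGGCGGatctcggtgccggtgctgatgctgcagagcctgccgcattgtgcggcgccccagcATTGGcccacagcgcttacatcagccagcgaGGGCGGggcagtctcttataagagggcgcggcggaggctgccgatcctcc
Tubb2b: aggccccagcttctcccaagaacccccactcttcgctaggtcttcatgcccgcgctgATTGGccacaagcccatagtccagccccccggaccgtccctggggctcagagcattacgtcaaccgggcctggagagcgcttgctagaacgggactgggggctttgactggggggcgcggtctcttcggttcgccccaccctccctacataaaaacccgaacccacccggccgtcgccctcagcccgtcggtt
Map1b: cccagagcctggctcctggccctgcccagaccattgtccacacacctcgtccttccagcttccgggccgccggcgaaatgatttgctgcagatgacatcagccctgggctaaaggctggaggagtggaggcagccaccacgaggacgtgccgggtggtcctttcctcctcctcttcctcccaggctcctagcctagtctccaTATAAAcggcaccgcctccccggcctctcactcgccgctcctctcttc
Stmn3: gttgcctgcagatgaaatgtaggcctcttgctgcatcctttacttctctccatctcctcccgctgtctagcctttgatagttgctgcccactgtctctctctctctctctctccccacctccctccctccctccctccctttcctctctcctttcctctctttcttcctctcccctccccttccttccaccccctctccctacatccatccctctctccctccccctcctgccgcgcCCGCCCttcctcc
The Tubb3 window held a CCAAT match that begins 81 bases before the start and 2 GC box matches, at 142 and 50 bases before it. The Tubb2b window held 1 CCAAT match, at 193 bases before the start, and no match to the other cores. Both tubulin windows thus shared the CCAAT core, which 34.3% of all 27457 windows of this length also held. Map1b had 1 TATA match, 48 bases before the start, a core found in 13.1% of all windows, and Stmn3 had 1 GC box match, 13 bases before the start, found in 32.4%. The share of G and C was 68.0% for Tubb3, 65.2% for Tubb2b, 63.6% for Map1b and 59.2% for Stmn3. A match describes these letters and does not show that a factor binds.

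Among the MAPs, Map1a had the largest difference of the 10 genes. Map1a, a protein of mature axons and dendrites that binds along microtubules, had 607 in neurons with myocytes and 923 in neurons alone (1367882_at), a log2 ratio of -0.60 or 1.52-fold lower. This was 2.27 times its technical SD of 0.27, and the ratio stayed negative under all 10 alternatives, from -0.70 to -0.52. It was under 1.5-fold with median scaling (-0.52), scaling to the trimmed mean (-0.58) and a pseudocount in place of the floor (-0.57). Map1a had 1 probe set, so no other measurement of it was at hand. Map1b, its relative in growing axons, had 3168 with myocytes and 3475 alone on its brightest probe set (1373363_at), a log2 ratio of -0.13 within the technical SD of 0.21. Its other probe set (1371003_at) had 138 with myocytes and 213 alone, a log2 ratio of -0.62, and it reached the filter in neurons alone and not with myocytes, so it adds no support. The ratio of the brightest ran from -0.23 to -0.05 over the scalings. The brightest probe set of Map1b had a log2 ratio 0.47 above that of Map1a, against a technical SD of 0.34 for the difference.

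Map2 and Mapt gave no settled direction, because their own probe sets disagreed. Map2, which marks dendrites and cell bodies, had 556 in neurons with myocytes and 512 in neurons alone on 1388152_at, a log2 ratio of 0.12 and less than the technical SD of 0.27. Its other probe set (1368411_a_at) was below the filter in both arrays, at 75.6 with myocytes and 138 alone, and had the lowest ratio of the 16 (-0.87, 1.83-fold lower). The mean of both was -0.38. Mapt, the axonal protein tau, had 3 probe sets that the annotation lists under the same source sequence. On the brightest (1387071_a_at), whose name ending marks probes shared by transcripts of a gene, the intensity was 3564 with myocytes and 3188 alone, a log2 ratio of 0.16. On 1368137_at it was 1891 with myocytes and 2392 alone (-0.34), and on 1368138_at it was 705 with myocytes and 820 alone (-0.22). Of the 3, 2 were therefore lower, by 1.26-fold and 1.16-fold, and 1 was higher by 1.12-fold. The mean over the 3 was -0.13. Which transcripts of Map2 and Mapt each probe set matches was not examined here.

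The stathmins lay on both sides of 0, with Stmn2 and Stmn3 lower and Stmn4 higher in neurons with myocytes. Stmn2, also called SCG10, which sits on membranes of growth cones, had 3667 in neurons with myocytes and 4693 in neurons alone on 1370041_at, a log2 ratio of -0.36 or 1.28-fold lower. Its other probe set (1370042_at) had 3352 with myocytes and 3682 alone, 1.10-fold lower (-0.14). The first value was 1.73 times the technical SD of 0.21 and the second was within it. Stmn3, also known as SCLIP and likewise anchored to membranes in neurons, had 1855 with myocytes and 2278 alone, 1.23-fold lower (-0.30, technical SD 0.21). Over the 5 scalings the ratio ran from -0.45 to -0.27 for Stmn2 and from -0.39 to -0.21 for Stmn3.

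Stmn4, also known as RB3 and the third stathmin with a membrane anchor, ran the other way. It had 835 in neurons with myocytes and 638 in neurons alone (1370315_a_at), a log2 ratio of 0.39 or 1.31-fold higher, 1.46 times its technical SD of 0.27. The ratio ran from 0.29 to 0.47 over the scalings. Stmn4 had 1 probe set, again of the kind shared by transcripts of a gene. Its log2 ratio, the highest of the 10 genes, exceeded that of Stmn2 by 0.74 and that of Stmn3 by 0.68. In each case the technical SD of the difference was 0.34, and a common scale factor does not enter such a difference. The Stmn2 value here is that of its brightest probe set, and the other (1370042_at) was nearer to Stmn4, at -0.14. Stmn1, the cytosolic stathmin of neurons and dividing cells, had 4222 with myocytes and 3961 alone, a log2 ratio of 0.09 within the technical SD of 0.21, and under scaling to the spiked controls it was -0.00041. Stmn1 is therefore given no direction.

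**Figure D3:**
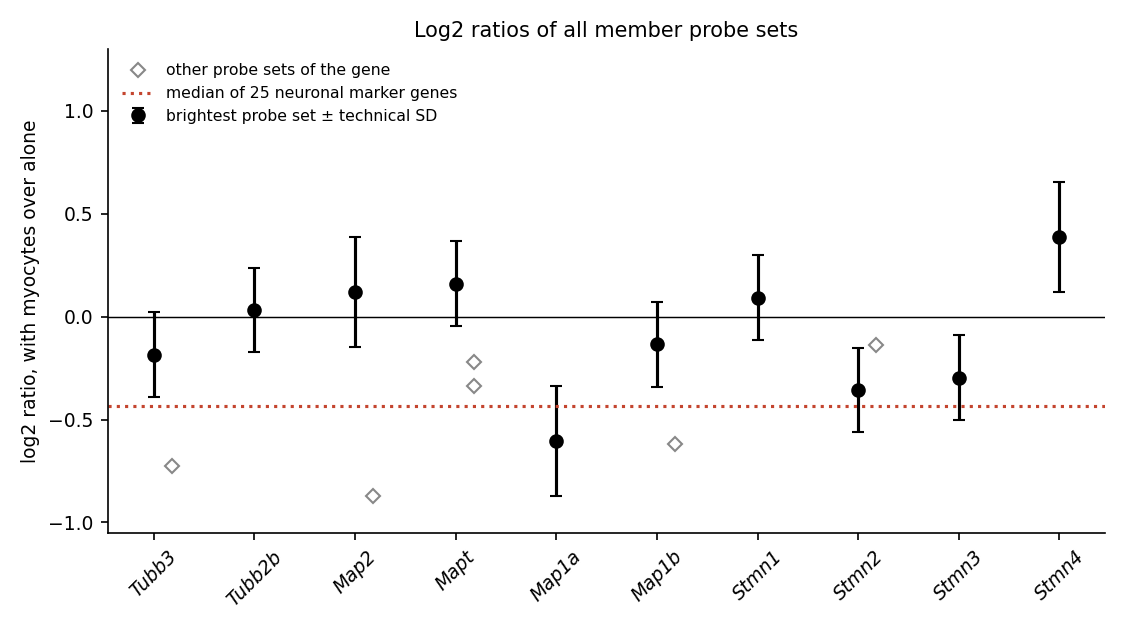
Log2 ratio of neurons with myocytes over neurons alone for each gene. Filled points are the brightest probe set with the technical SD as bars (agreement of probe sets, not replicates), diamonds are other probe sets, and the dotted line is the median of 25 sympathetic and pan-neuronal marker genes (-0.43). The bars of Map1a, Stmn2, Stmn3 and Stmn4 do not reach 0, and the diamonds of Tubb3, Map2, Mapt and Map1b lie below the filled points.

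Counted over probe sets, more were lower than higher, but no like background was at hand for this count. Of the 16 probe sets 11 were lower and 5 higher in neurons with myocytes, with a median log2 ratio of -0.20, while 49.3% of all 12783 probe sets with 1 symbol were lower and 36.1% higher, the rest being at the floor in both arrays. No member probe set was at the floor in both arrays, so these shares are not a like background. Of the 14 member probe sets above the filter 9 were lower. These include 1371003_at of Map1b, which reached the filter in neurons alone and not with myocytes. The share of all probe sets above the filter that were lower was not computed, and 52.7% of genes above the filter were lower. On the brightest probe sets, 4 of 10 genes (Map1a, Stmn2, Stmn3 and Stmn4) differed by more than 1 technical SD and 6 did not, where 26.3% of genes above the filter did. Past 1.5-fold were 4 probe sets, all lower, of which 1 (that of Map1a) was its gene's brightest and the other 3 were the dimmer ones of Tubb3, Map2 and Map1b. At least 1.5-fold lower values were seen in 6.42% of all probe sets with 1 symbol. In 4 of the 5 genes with several probe sets, all but Stmn2, the brightest one had a higher ratio than the mean of the others, by 0.54 for Tubb3, 0.99 for Map2, 0.44 for Mapt and 0.49 for Map1b. Over all 1868 genes with several probe sets, the brightest was the higher one in 50.2%. With only probe sets above the filter, the second ones of Tubb3 and Map2 are left out. The brightest then was the higher one in 2 of 3 members and in 59.0% of 749 genes. The 3 genes are too few to be set against that share, and the second probe set of Map1b reached the filter in neurons alone only. Probe sets of 1 gene share their RNA, and those of Mapt and of Stmn2 share a source sequence, so these counts are not independent measurements.

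The 10 genes were set beside markers of the neurons themselves. Of 25 measured sympathetic and pan-neuronal marker genes, none of them a member and 1 (Thy1) also on the fibroblast list, 23 were lower in neurons with myocytes and 2 higher, with a median log2 ratio of -0.43 that ran from -0.53 to -0.35 over the 5 scalings. The 2 higher ones, Nefh and Rbfox3, were below the filter and were named after their values were seen. For comparison, 49.7% of all 10411 genes and 52.7% of those above the filter were lower. The summed intensity of these markers was 39537 with myocytes and 49633 alone. Th, which makes the precursor of noradrenaline, had 4575 with myocytes and 6175 alone (-0.43), and Dbh, which completes noradrenaline synthesis, had 1596 with myocytes and 2159 alone (-0.44). Smaller differences were seen for Prph (peripherin, a filament protein of peripheral neurons), at 4598 with myocytes and 5008 alone (-0.12) and for Gap43, a growth cone protein, at 5028 with myocytes and 5492 alone (-0.13). The markers past 1.5-fold with the largest differences were the granin Scg2 (1.89-fold lower), the neurofilament-type gene Ina (1.63-fold), the synapsin Syn2 (1.63-fold) and the granin Chga (1.58-fold). At least 1.5-fold lower values were seen in 3.3% of genes above the filter. Chga, at 131 with myocytes and 206 alone, reached the filter in neurons alone and not with myocytes.

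Of the 10 members 9 had a higher ratio than this marker median, near the background of 92.7% of genes above the filter, and Map1a was below it by 0.17. With a gene's probe sets averaged, Tubb3 (-0.46) would lie below it too. Stmn2 and Stmn3 were nearest above it, by 0.08 and 0.14, followed by Tubb3 (0.25) and Map1b (0.30). Tubb2b stood 0.46, Stmn1 0.52, Map2 0.55 and Mapt 0.59 above it, and Stmn4 0.82. In bulk RNA, fewer neurons and less RNA per neuron cannot be told apart, and this holds for every value here. The EDTA harvest, which the protocol describes for cultures that contain myocytes or other flat cells, cannot be told apart from the co-culture either.

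Transcripts of other cells were present in both arrays. The 20 fibroblast and smooth muscle markers, none below the filter, had a summed intensity of 66234 with myocytes and 60185 alone. With myocytes 16 were higher and 4 lower, while 52.7% of genes above the filter were lower. Over the scalings 4 to 7 of the 20 were lower. Their median was 0.22 (0.13 to 0.30 over the scalings). Col1a1, a collagen of fibroblasts, had 10750 with myocytes and 9988 alone, which gives 0.11 in log2 as deposited but -0.05 under lowess. The members of this list past 1.5-fold were Mgp (3.89-fold higher), Dcn (2.13-fold), Lum (1.75-fold) and Loxl1 (1.73-fold), all of the extracellular matrix, where 2.49% of all genes were at least 1.5-fold higher. Of the smooth muscle contractile genes, named after their values were seen, Acta2 had 2913 with myocytes and 4040 alone (-0.47), Myl9 was at -0.24 and Tagln at -0.23, while Cnn1 was at 0.26. The 12 measured markers of Schwann and satellite glia summed to 9707 with myocytes and 9310 alone, with a median of 0.10 (0.0046 to 0.18). Of these, 8 were higher and 4 lower with myocytes, where 38.5% of all genes were higher and 49.7% lower. S100b (1.99-fold higher) and Egr2 (1.66-fold) were past 1.5-fold. Egr2, with 288 in neurons with myocytes and 174 in neurons alone, reached the filter in the first array alone, so its place among the genes named here depends on that difference. Of the 23 measured cardiac markers 17 were below the filter in both arrays. With myocytes 10 were higher, 10 lower and 3 at the floor in both arrays, where 38.5% of all genes were higher and 49.7% lower. Their ratios ran from -0.68 (Sln) to 1.58 (Myl2), both below the filter, and the sums were 3060 with myocytes and 2744 alone. Nppa, the study's myocyte marker, had 201 with myocytes and 178 alone (0.18, technical SD 0.36), and Nppb, a related peptide of heart muscle, had 309 with myocytes and 180 alone (1.72-fold higher), which reached the filter in the array with myocytes and not in the other.

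Stmn1 and some MAPs are also made outside neurons, Stmn1 above all in dividing cells. The 16 measured cell cycle genes, all above the filter, summed to 17576 with myocytes and 16397 alone, with a median of 0.05 that ran from -0.04 to 0.14 over the scalings. Among them the replication factor Pcna had 3140 with myocytes and 2998 alone (0.07, negative under 2 of the 5 scalings), the cyclin gene Ccnd1 had 2287 with myocytes and 1858 alone (0.30), and Mki67, which marks dividing cells, had 605 with myocytes and 630 alone (-0.06, or 0.03 under median scaling). Every deposited intensity is above 0, so a value above 0 does not show that a marker was expressed. Of the cardiac markers 3 were below the floor of 39.6 in both arrays. The part of fibroblasts, glia and dividing cells in the values of Stmn1 and the tubulins was not tested.

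**Figure D4:**
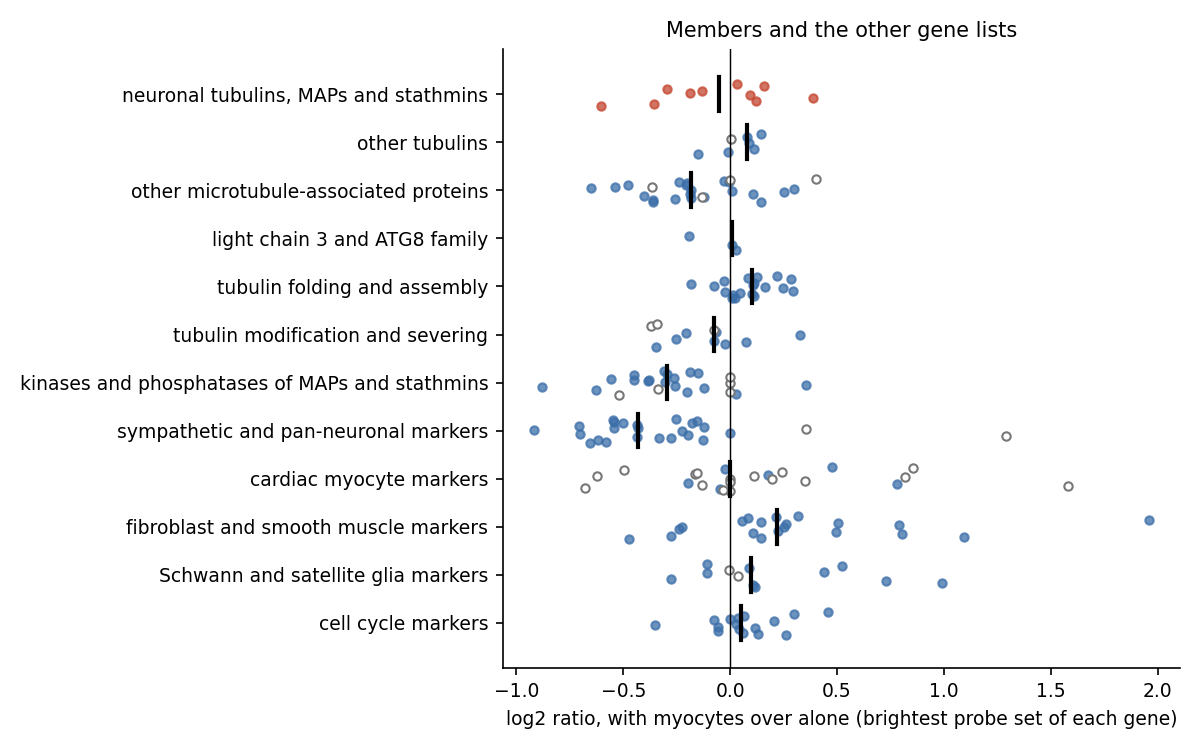
Log2 ratio of neurons with myocytes over neurons alone for every measured gene of each list, by its brightest probe set; open points were below the signal filter in both arrays and black bars are list medians. The 10 members (red) spread from -0.60 to 0.39, the neuronal markers centre on -0.43 and the fibroblast and smooth muscle markers on 0.22.

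The other tubulins differed by little between the arrays. Of 18 other tubulin genes on the list, 7 were measured by a probe set with 1 symbol, 5 of them higher and 2 lower, with a median log2 ratio of 0.08 against 0 for all 10411 genes and with none past 1.5-fold. The median ran from -0.01 to 0.16 over the scalings. Across all genes 38.5% were higher and 49.7% lower, and of those above the filter 52.7% were lower. Tubb5, a beta-tubulin of most cell types, had 8784 with myocytes and 8264 alone (0.09, or -0.05 under lowess), and Tubb4b, also widely made, had 5615 with myocytes and 5076 alone (0.15, positive under each of the 5 scalings). The ratio of Tubb3 was below both, at -0.19, but within its technical SD of 0.21, and its second probe set was below the filter. The 2 lower genes of this list, named after their values were seen, were Tuba4a and Tubb6. Tuba4a had 513 with myocytes and 569 alone (-0.15), within its technical SD of 0.27, and Tubb6 was at -0.009.

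Of 37 other microtubule-associated proteins on the list 25 were measured, 4 of them below the filter, with 18 lower, 6 higher and 1 at the floor in both arrays and a median of -0.18 that ran from -0.27 to -0.10 over the scalings. Across all 10411 genes 49.7% were lower and 38.5% higher, and 5.55% were at least 1.5-fold lower. The 1 gene past 1.5-fold was Nav1, a neuronal protein that tracks growing microtubule ends, with 241 in neurons with myocytes and 379 in neurons alone (1.57-fold lower). Of the 3 measured genes of the light chain 3 and ATG8 family, named after a light chain of Map1a and Map1b and known for its part in autophagy, none was past 1.5-fold. Gabarap had 2862 with myocytes and 2807 alone (0.03) and Map1lc3a had 1723 with myocytes and 1715 alone (0.0068), values that turned negative under at least 1 scaling.

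Of 21 genes of tubulin folding 19 were measured, 15 of them higher and 4 lower, with a median of 0.10 (0.01 to 0.19 over the scalings, with 1 to 9 lower) and none past 1.5-fold. All 19 were above the filter, where 52.7% of genes were lower. Cct4 and Tcp1, subunits of the chaperonin that folds actin and tubulin, had 4634 with myocytes and 4379 alone (0.08), and 3993 with myocytes and 3960 alone (0.01), and both turned negative under quantile normalization. Of 23 genes of tubulin modification and severing 11 were measured, 9 lower and 2 higher, with a median of -0.08 (-0.17 to -0.04). Among all genes 49.7% were lower. Agtpbp1, which trims glutamates from tubulin tails, had 1124 with myocytes and 1429 alone (-0.35, technical SD 0.21). Vash1, which removes the terminal tyrosine of alpha-tubulin, had 903 with myocytes and 1042 alone (-0.21).

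Of 27 kinases and phosphatases that act on MAPs and stathmins 23 were measured, 18 of them lower, 2 higher and 3 at the floor in both arrays. Their median of -0.29 ran from -0.39 to -0.21 over the scalings. Over all 10411 genes 49.7% were lower, and 5.55% were at least 1.5-fold lower. Past 1.5-fold were Gsk3a, a kinase that phosphorylates tau, with 260 in neurons with myocytes and 478 in neurons alone (1.84-fold lower), and Mapk9, a Jun kinase that acts on stathmins and MAPs, with 190 with myocytes and 293 alone (1.54-fold lower). Both probe sets are dim, with a technical SD of 0.29 for Gsk3a and 0.36 for Mapk9. Many of these enzymes are made in all cell types, and the lists were chosen with earlier results of these arrays known, so their counts are descriptions.

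**Figure D5:**
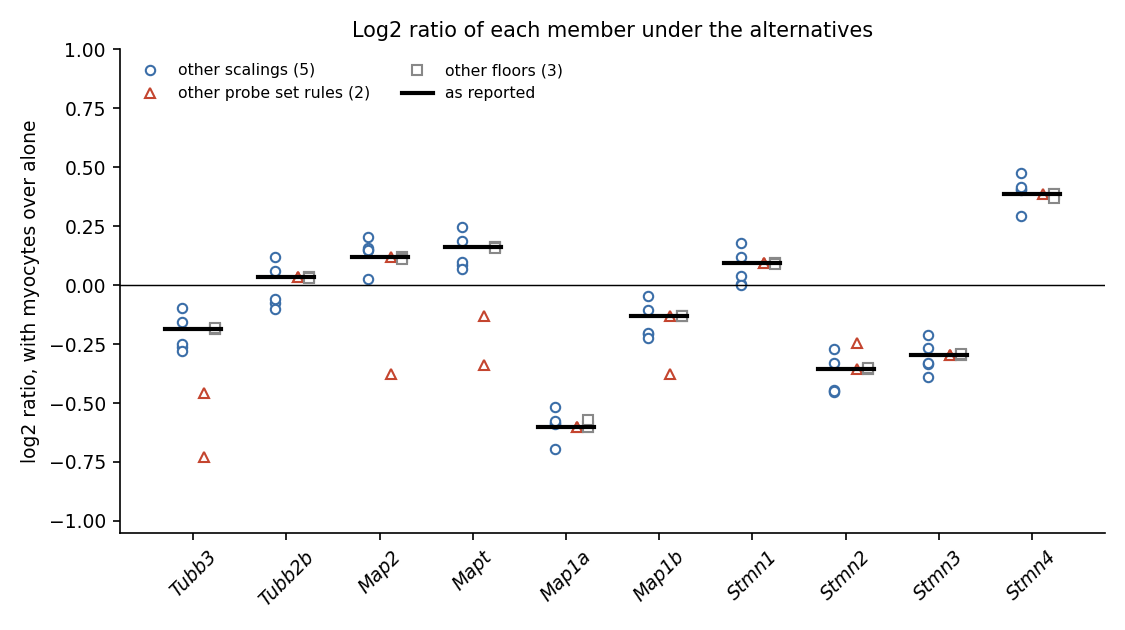
Log2 ratio of neurons with myocytes over neurons alone for each member as reported (black bar) and under the 5 other scalings (circles), 2 other probe set rules (triangles) and 3 other floors (squares). The values of Map1a, Stmn2, Stmn3 and Stmn4 stay on 1 side of 0 throughout, those of Tubb3 and Map1b stay below 0, and those of Tubb2b, Map2, Mapt and Stmn1 cross it.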

How the data were processed

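Total RNA of rat sympathetic neurons was labelled with biotin and hybridised to 2 arrays. The deposited intensity of each probe set is linear and above 0. The series' design text names dChip 1.3 for quantification, while the submitters' processing notes name MAS5. Which tool the authors used for these values, with which scaling and background step, is not stated in the sources used here. The number of arrays limits the precision.

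Of 15923 probe sets 57 controls were left out. Of the other 15866, 12783 had 1 symbol, 312 several and 2771 none in the platform annotation. Symbols were updated through gene identifiers to the GRCr8 RefSeq table, in which 12748 of the 12783 were found. No further normalization was applied to the deposited values, with the floor, filter and log2 ratios described above (Python 3.11.15, numpy 2.4.6, pandas 2.3.3, statsmodels 0.14.6). The calculation was tested on simulated data. No test was run, since each condition has 1 array.

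Named were all 10 members, from each other list up to 4 genes past 1.5-fold above the filter or else its 2 brightest, and Nppa, Th, Dbh, Prph, Gap43, Col1a1, S100b and Mki67. The members and lists were chosen with earlier results of these data known. Alternatives were 5 scalings (median, quantile, lowess with span 0.3, 2% trimmed mean, 12 spiked controls), 3 floors (40th percentile, none, a pseudocount), 2 probe set rules and the filter. The scalings shifted log2 ratios by at most 0.09 where they use 1 factor.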

Additional observations from a re-analysis of the deposited data

How the results depend on the processing

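No paired analysis was possible because each condition has 1 array and the result comes from no test. Over the 10 alternatives for single genes, 93 of 99 values moved by less than the technical SD. Many of the 93 could not have moved further, so this count says little about stability. Scalings with 1 factor shift a ratio by at most 0.09, below a technical SD of 0.21 or more. The probe set rules cannot change the value of a gene with 1 probe set. The 6 values that moved further came from the rule for choosing probe sets. Averaging all probe sets gave -0.46 for Tubb3, -0.38 for Map2, -0.13 for Mapt and -0.38 for Map1b. Leaving out probe sets for several transcripts gave -0.73 for Tubb3 and -0.34 for Mapt, and left no probe set for Stmn4. Of the genes, 6 kept their sign under each alternative that gave a value and 4 (Tubb2b, Map2, Mapt and Stmn1) did not. The median of the 10 genes, -0.05 as reported, was 0.036 under median scaling, -0.14 under lowess and under scaling to the spiked controls, -0.15 after quantile normalization, -0.27 with averaged probe sets and -0.30 without probe sets for several transcripts. The number of members past 1.5-fold was 1 as reported and 0 under median scaling, scaling to the trimmed mean and a pseudocount, and it was 2 (Map1a and Tubb3) without probe sets for several transcripts. The number of genes lower stayed between 5 and 7, and of probe sets lower between 9 (above the filter alone) and 13 (spiked controls). Low signal limits the second probe sets of Tubb3 and Map2, which were below the filter in both arrays.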

Other observations

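The alpha-tubulin genes Tuba1a, Tuba1b and Tuba1c, which supply the partner of beta-tubulin, share 1 probe set that the annotation assigns to all 3, so none has a value of its own above. That probe set had 11027 in neurons with myocytes and 10804 in neurons alone, a log2 ratio of 0.03. A probe set assigned to Map1lc3b and a copy of it had 721 with myocytes and 724 alone (-0.0049), and 1 assigned to Gabarapl2 and a copy of it had 1185 with myocytes and 1399 alone (-0.24). No probe set with several symbols included any of the 10 genes.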
